A study of Laguncularia racemosa with 22 samples.

Results

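The comparison described here is that of leaf messenger RNA in seedlings of the white mangrove, *Laguncularia racemosa*, between the 3 h and the 0 h libraries whose titles carry the letter Q. Its members were taken by the columns of the count table with that letter and those times, which gave 6 of the 22 libraries of the study, 3 for each time. The seedlings were wild type and 8 weeks old, and were raised at 30 °C by day and 28 °C by night with 16 h of light. The treatment label of these 6 libraries reads control, followed by 3 h or 0 h. The treatment text that stands with every library describes seedlings placed at 0 °C, and does not say whether the Q seedlings were among them. The 5 libraries of the letter P at the same times, 2 at 3 h and 3 at 0 h, have labels that name freezing temperature, and are used here as a second set with no library in common. The 12 h and 36 h libraries of both letters are also read, and their treatment labels are not set out here. Seed was collected at 2 sites, and no label links P or Q to either.

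White mangroves grow on warm tidal shores, and low temperature is known to limit how far mangroves reach towards the poles. In Arabidopsis, chilled leaves switch on within hours a set of transcription factors of the CBF family, which in turn raise COR genes that protect membranes and proteins. In the same plant a large part of the leaf's transcripts also follows the daily clock, in which CCA1 and LHY peak in the morning and TOC1 in the evening. A difference between leaves taken a few hours apart can therefore hold a response to cold, a daily rhythm, a response to light or handling, or several of these together, and in these libraries they cannot be told apart. The genes of the table carry identifiers of the Trinity assembler and no names, so neither the lists for cold response, clock and heat shock nor the markers of leaf tissue could be read here. No function is given to any gene.

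Leaf transcripts of Q had changed broadly by 3 h, in both directions. Of the 21694 genes tested, 1281 were higher and 828 lower at 3 h than at 0 h in edgeR's quasi-likelihood test at a Benjamini-Hochberg adjusted p under 0.05, which is 9.72% of the genes tested, 5.9% in the upward and 3.82% in the downward direction. The median log2 change was 1.01 among the genes that rose and -0.79 among those that fell, beside -0.02 over all genes tested. The 3 libraries of 3 h lay wholly above the 3 of 0 h for 1248 of the 1281 genes that rose, and wholly below them for 805 of the 828 that fell. Over all genes tested, 14.1% lay wholly above and 12.6% wholly below. An adjusted p under 0.01 was reached by 1040 genes, while 204 genes had an adjusted p between 0.04 and 0.05 and 218 between 0.05 and 0.06, so the line between called and uncalled genes ran through a dense stretch. How the calls split by direction depended on the scaling between libraries. With RLE factors in place of TMM factors, 1295 genes were higher and 811 lower, close to the main split. With library totals in place of TMM factors the median of all genes moved to -0.13, and 975 genes were higher and 1605 lower.

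Library sizes at the 2 times differed little. Total counts were 17697896, 16905935 and 14894133 at 3 h, against 17193717, 17237924 and 17214709 at 0 h. A leaf sample holds several cell types, and fewer cells of a type and less RNA per cell cannot be told apart in it. One library of 0 h stood apart from the others. Replicate 3 of 0 h had 29031 identifiers with a count, against 35078 and 34459 in replicates 1 and 2, and 31465 to 32826 in the 3 h libraries. On the second principal component of the 6 libraries, with 21.6% of the variance, it lay at 72.8, and the other 5 lay between -41.0 and 11.2. The first component, with 37.2%, placed the 3 h libraries between 40.2 and 59.6 and the 0 h libraries between -57.6 and -43.0. Without replicate 3 of 0 h, 907 genes were higher and 522 lower. The distance of a pair of libraries was the root mean square over genes of their difference in log2 CPM (counts scaled to a common library size). The distance averaged 0.92 between a 3 h and a 0 h library, 0.72 among 3 h libraries and 0.81 among 0 h libraries. Leaving out replicate 2 of 3 h gave 1321 called genes in place of 2109.

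Large changes were more often rises than falls. A change of 4-fold or more was reached by 229 of the 1281 genes that rose, 17.9% of them, and by 61 of the 828 that fell, 7.37% of them. At 8-fold or more the counts were 96 and 16. Most calls were small: 636 rises and 532 falls were under 2-fold. The excess of large rises over large falls was seen under each scaling, at 232 against 61 with RLE factors and 195 against 93 with library totals, where 975 genes were higher and 1605 lower in all.

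**Figure D1:**
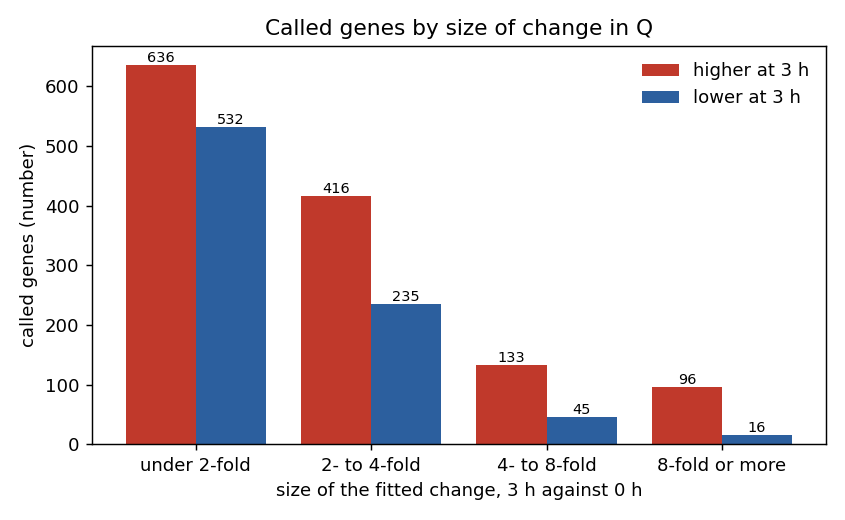
Number of called genes (y axis) by the size of the fitted change between 3 h and 0 h in Q (x axis), with genes higher at 3 h in red and genes lower at 3 h in blue. The red bar is the taller in each class, with 636 against 532 genes under 2-fold and 96 against 16 at 8-fold or more.

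Strongly expressed genes were called more often than weak ones. The tested genes were split into 4 equal classes by their mean over the 6 libraries. In the highest class, above 36.9 CPM, 602 genes rose and 309 fell, which is 11.1% and 5.70% of that class. In the lowest, under 0.825 CPM, 40 rose and 19 fell. The median standard error of a log2 change was 0.14 in the highest class and 0.91 in the lowest, so a weak gene had to change far more to be called, and all 40 rises in the lowest class were 4-fold or more. Of the 100 most abundant genes over the 6 libraries, 16 rose and 2 fell, and of the 1000 most abundant, 156 rose and 48 fell. The genes that rose had a median level of 44.8 CPM at 3 h, against 21.0 CPM at 0 h, and those that fell had 18.2 CPM at 3 h, against 30.7 CPM at 0 h. The median over all genes tested was 8.73 CPM at 3 h and 8.75 CPM at 0 h.

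**Figure D2:**
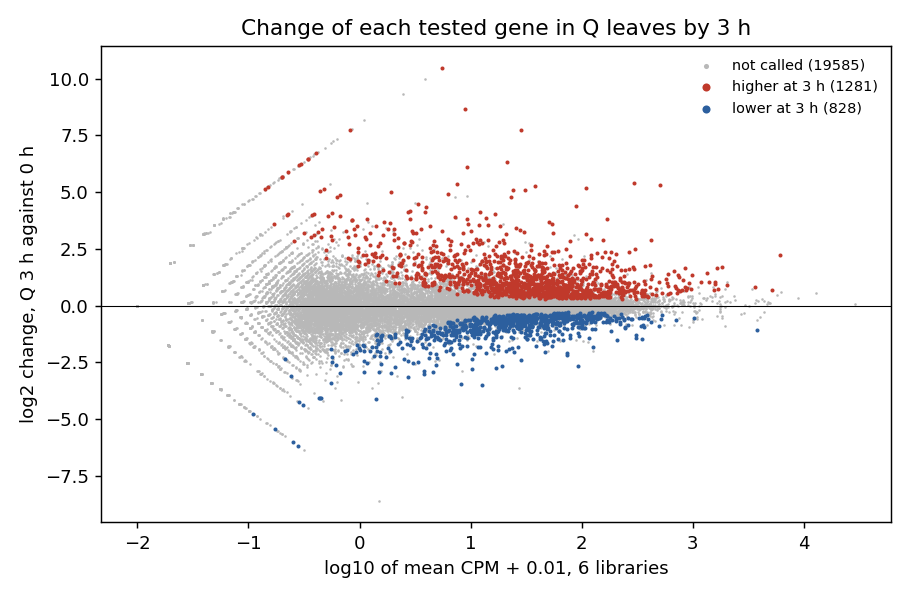
Log2 change between 3 h and 0 h in Q (y axis) against the mean level over the 6 libraries on a log10 scale of CPM + 0.01 (x axis), with 1 point per tested gene. Red points are the 1281 genes higher at 3 h, blue points the 828 lower and grey points the genes not called. Red points reach further from the zero line than blue ones, and the smallest change that was called shrinks towards high levels.

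The changed genes also shifted how the leaf's messenger RNA was shared out. The genes that rose held 15.5%, 16.5% and 15.7% of all counts in the 3 libraries of 3 h, against 8.15%, 9.30% and 8.28% in those of 0 h. The genes that fell held 3.30%, 3.11% and 3.38% of counts at 3 h, against 6.02%, 5.60% and 6.21% at 0 h. These genes were chosen by the same libraries, so the shares describe the size of the shift and test nothing. The 10 largest gains in mean CPM made up 26.2% of the summed gain, and the 10 largest losses 23.0% of the summed loss. A gain of over 500 CPM was seen in 24 genes that rose, and a loss of over 500 CPM in 1 gene that fell.

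The largest single gain belonged to an identifier that shares its Trinity cluster with others, 3 identifiers in all, so reads may be split or shared between near-identical copies. It stood at 7791, 11668 and 10867 CPM in the 3 h libraries, against 1745, 2078 and 2622 CPM in the 0 h libraries, and the groups did not overlap. Its fitted log2 change was 2.23 ± 0.26 (standard error), with an adjusted p of 1.627e-05 in edgeR, and it moved to place 3 among all genes by mean level at 3 h, against place 29 at 0 h. It is not named because it shares its cluster, and it was picked out after its values were seen. It went on to 19565 ± 1166 CPM at 12 h and stood at 8356 ± 576 CPM at 36 h in Q (SD, n = 3 each). In P it had 5549 and 7810 CPM at 3 h, against 2525, 2562 and 4202 CPM at 0 h.

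Of the genes alone in their Trinity cluster, 4 are described by identifier. They are the one with the largest log2 rise, the one with the largest gain in CPM, the one with the largest log2 fall and the one with the largest loss in CPM, among the 762 risers and 496 fallers with a mean of at least 5 CPM and no overlap between times.

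TRINITY_DN1106_c1_g1 was the largest rise among the 762 risers so defined, from a gene that was all but absent at 0 h. Among all called genes the largest log2 rise was 10.5. TRINITY_DN1106_c1_g1 had 375, 184 and 295 counts in the 3 h libraries, against 1, 0 and 1 counts in the 0 h libraries. In CPM these were 22.2, 10.8 and 20.5 against 0.0543, 0 and 0.0562. All 3 libraries of 3 h were far above those of 0 h, with replicate 2 the lowest of them. The ratio of pooled levels was 483, with an exact 95% interval of 133 to 3997. That interval was computed on counts pooled over libraries, so it covers counting error only. It is wide because there were 2 counts at 0 h. The adjusted p was 0.000697 in edgeR, and it was 0.00685 or lower with any 1 of the 6 libraries left out. At 12 h the Q libraries held 14.6, 4.05 and 4.34 CPM, and at 36 h 0.441, 0.796 and 0.132 CPM. In P the gene had 95 and 236 counts at 3 h, against 0 counts in all 3 libraries of 0 h (adjusted p 0.00226 in edgeR). At 12 h the P libraries held 7.47, 17.9 and 8.47 CPM, and at 36 h 1.97 and 26.7 CPM.

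TRINITY_DN4124_c0_g1 was an abundant transcript that became more so. It stood at 4699, 3771 and 5327 CPM at 3 h, against 2507, 2710 and 2570 CPM at 0 h, which took it to place 14 among all genes by mean level, against place 24 at 0 h. The groups did not overlap, and the 3 h libraries were the more spread out, with an SD of 783 CPM against 104 CPM. The fitted log2 change was 0.83, standard error 0.16 (adjusted p 0.00273 in edgeR), and stayed between 0.71 and 0.95 with any 1 of the 6 libraries left out. In Q it stayed high afterwards, at 4873 ± 531 CPM at 12 h and 5578 ± 1134 CPM at 36 h (SD, n = 3 each). In P it stood at 4523 and 4214 CPM at 3 h, against 2398, 2666 and 2514 CPM at 0 h, or 0.79 ± 0.18 on the log2 scale (standard error; adjusted p 0.0124 in edgeR).

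TRINITY_DN6198_c0_g1 was the largest log2 fall among the 496 fallers so defined, while among all called genes the largest was -6.17. TRINITY_DN6198_c0_g1 had 2.54, 2.17 and 1.32 CPM at 3 h, from 43, 37 and 19 counts. At 0 h it had 22.7, 25.5 and 21.9 CPM, from 417, 471 and 389 counts. The libraries of each time lay close together and far from those of the other. The fitted log2 change was -3.52, standard error 0.40 (adjusted p 1.642e-05 in edgeR), and lay between -3.72 and -3.30 with any 1 of the 6 libraries left out. It remained low at 4.18 ± 2.21 CPM at 12 h and 6.38 ± 3.32 CPM at 36 h in Q (SD, n = 3 each). In P it had 2.89 and 5.77 CPM at 3 h, against 20.0, 24.4 and 29.0 CPM at 0 h (log2 -2.50, standard error 0.44, adjusted p 0.00208 in edgeR).

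TRINITY_DN30863_c0_g1 lost the most in mean CPM, and stood far lower still at 12 h. It stood at 2591, 2186 and 2433 CPM at 3 h, against 4462, 3928 and 6930 CPM at 0 h, which took it to place 32 among all genes by mean level, against place 4 at 0 h. The groups did not overlap, but the highest of the 0 h values is that of the replicate 3 that stood apart. The fitted log2 change was -1.09, standard error 0.29 (adjusted p 0.0232 in edgeR), and without that library it was -0.80 and did not pass (adjusted p 0.131). It also lost the call without replicate 1, 2 or 3 of 3 h, with adjusted p-values of 0.0545, 0.099 and 0.0609 and log2 changes of -1.14, -1.02 and -1.10. At 12 h Q held 66.1 ± 22.9 CPM and at 36 h 48.8 ± 6.44 CPM (SD, n = 3 each). In P it stood at 2615 and 2618 CPM at 3 h, against 4797, 3617 and 4432 CPM at 0 h, or -0.71 ± 0.33 on the log2 scale (standard error; adjusted p 0.254 in edgeR).

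**Figure D3:**
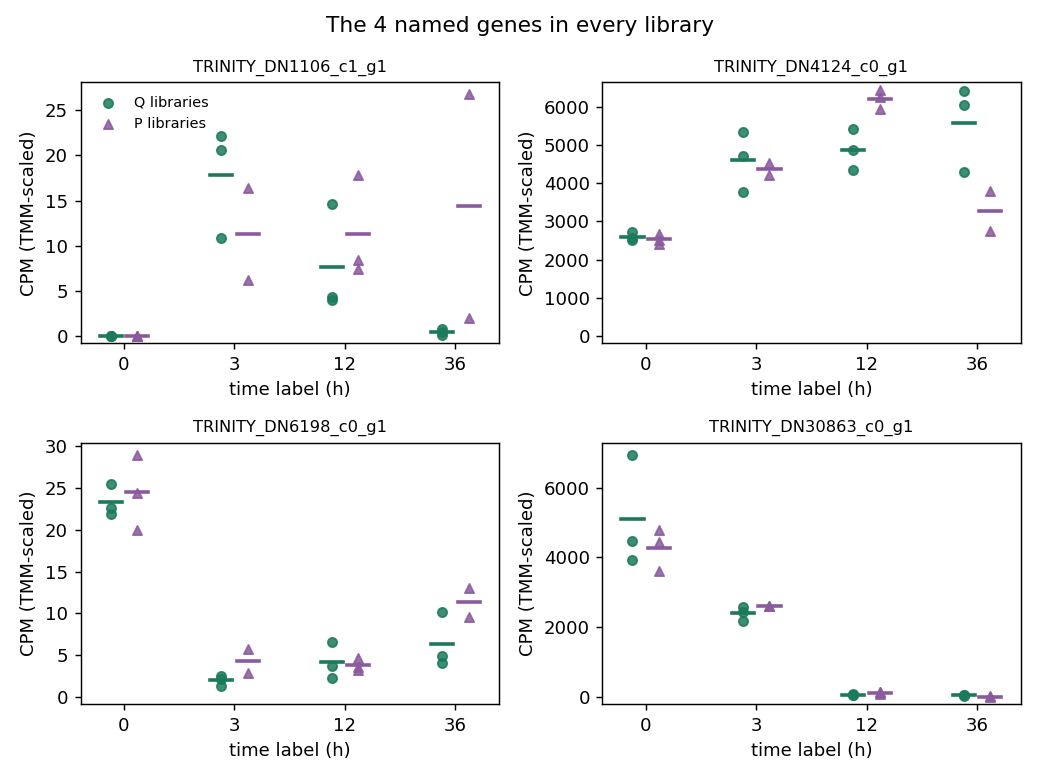
Level of the 4 named genes in CPM with TMM-scaled library sizes (y axis, from 0) at the 4 time labels (x axis), with Q libraries as circles, P libraries as triangles and short lines for the group means. The upper genes were higher at 3 h than at 0 h in every library of both letters and the lower genes lower, while their later courses differ from gene to gene.

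Few called genes were without a count in all libraries of a time. Weak genes are seldom called: under 0.825 CPM, 0.74% of genes were called higher and 0.35% lower. Of 5 genes with no count at 0 h and at least 10 in each library of 3 h, 2 were called. The small numbers below therefore do not show how many genes were switched on or off. Of the genes tested, 235 were without a count at 0 h in all 3 libraries, and 12 of these were among the genes that rose, beside 5.9% of all genes tested. They held 12 to 530 counts over the 3 libraries of 3 h. With 3 counts over the 0 h group taken as the floor, the least of them was at least 4.53-fold higher at 3 h. Their mean in P was also higher at 3 h than at 0 h in 12 of 12. For 5 of the 12 no P library of 0 h held a count, so their mean could not be lower at 3 h. In P, 3 of the 12 were called higher, where the test called 3.77% of all genes higher. In the other direction, 235 genes were without a count in the 3 h libraries, and 4 of these were among the genes that fell, beside 3.82% of all genes tested. These 4 had 11 to 30 counts over the 0 h libraries, and the least of them was at least 3.24-fold lower by the same floor over the 3 h group. Each bound lies beyond the median of its direction, so the medians of 1.01 and -0.79 are by construction the same with these genes at their bound. Of these 4, 2 also had the lower mean at 3 h in P and 0 were called lower there, where the test called 1.49% of all genes lower.

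Identifiers that share a Trinity cluster, which can be isoforms, copies or alleles of one gene, did not always move together. Of the called genes, 502 had another tested identifier in their cluster, 23.8% of them, beside 22.8% of all genes tested. In 63 clusters at least 2 identifiers were called, and in 18 of these one identifier rose while another fell. Counted as pairs of called identifiers of a cluster, 48 pairs moved in the same direction and 21 in opposite directions. Of all called genes, 60.7% rose. The median log2 change was 1.27 for the strongest riser and -0.81 for the strongest faller of the 18 clusters with both. With counts summed over the cluster, 4 of the 18 were called higher, 1 lower and 13 not at all. In P, whose libraries are not in the Q comparison, the same 2 identifiers had opposite signs in the same sense in 14 of the 18. Most called genes kept their sign in P in any case, 97.3% of all that rose in Q and 95.3% of all that fell. The 14 therefore say nothing particular about these clusters. For 1 of the 18 clusters the riser was at 173 CPM at 3 h, against 66.8 CPM at 0 h. Its faller was at 90.7 CPM at 3 h, against 151 CPM at 0 h. The pair was picked after its values were seen, and whether these are isoforms or separate genes cannot be read from the identifiers.

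The genes called in Q were next read in the libraries of P. Those libraries are not in the Q comparison, but they entered the filter and the shared estimate of spread. Of the 1281 genes that rose in Q, 1246 (97.3%) had a positive log2 change from 0 h to 3 h in P, beside 47.3% of all genes tested, and their median change in P was 0.73. Of the 828 that fell, 789 (95.3%) had a negative change in P, with a median of -0.49. The test in P called 5.26% of all genes, 3.77% higher and 1.49% lower. It called 573 of the Q rises, which is 44.7% of the rises in Q and 70.0% of those in P, and 194 of the Q falls, which is 23.4% of the falls in Q and 59.9% of those in P. No gene called in one direction in Q was called in the opposite direction in P.

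Larger rises in Q were called in P more often. The share was 30.8% of the 636 rises under 2-fold, 57.9% of the 416 between 2- and 4-fold and 59.4% of the 229 at 4-fold or more. The median log2 change of these 3 classes was 0.65, 1.38 and 2.81 in Q, and 0.42, 1.01 and 2.17 in P. Falls showed less of this, with 21.2%, 26.8% and 29.5% called in P for the same classes, and medians of -0.62, -1.32 and -2.58 in Q and of -0.39, -0.81 and -1.30 in P. The change was larger in size in P for 23.7% of the rises and 16.8% of the falls. Chosen the other way round, the 818 genes called higher in P had a median of 1.06 in Q and 1.26 in P, and the 324 called lower had -0.67 in Q and -0.91 in P. In both choices the median was the larger in the letter whose comparison chose the genes.

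**Figure D4:**
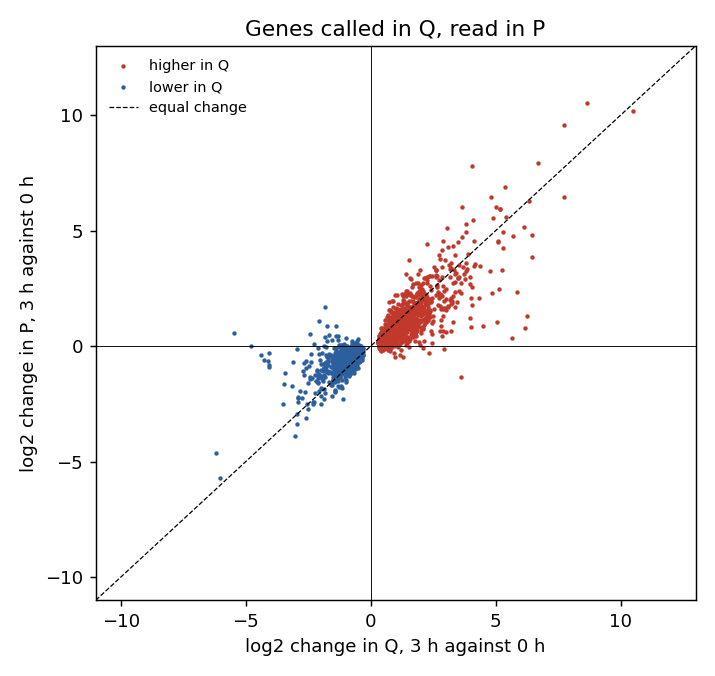
Log2 change from 0 h to 3 h in P (y axis) against that in Q (x axis) for the genes called in Q, red for the 1281 that rose and blue for the 828 that fell; the dashed line marks equal change. Most red points lie above the horizontal zero line and most blue points under it, 1246 and 789 of them.

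A call in Q without a call in P was not by itself a difference between them. The 708 rises called in Q alone had a median change of 0.42 in P, and 673 of them (95.1%) were positive there, while the 634 falls called in Q alone had a median of -0.39 in P with 595 (93.8%) negative. Q had 3 libraries at 3 h and P had 2. An interaction test in edgeR, of the 3 h change in Q minus that in P, was passed by 1 of the 21694 genes (0.00461%), which was not among the 2109 called in Q. In that edgeR test 1196 of the 21694 genes had an unadjusted p under 0.05, close to the share this threshold gives when no gene differs. DESeq2 called 23. For all 4 named genes the edgeR interaction test gave an adjusted p of at least 0.911. For TRINITY_DN4124_c0_g1 the difference, Q minus P, was a log2 of 0.03 with a standard error of 0.245, and for TRINITY_DN6198_c0_g1 it was -1.02 with a standard error of 0.56. A p that misses the threshold at this depth of replication does not show equal changes.

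Reading genes chosen in P back into single Q libraries shows how far each 3 h library was displaced. Against the mean of the 0 h libraries, the 818 genes called higher in P had a median log2 difference of 1.09, 1.08 and 0.95 in the 3 h libraries of Q. Each 0 h library, set against the mean of the other 2, gave -0.13, 0.11 and 0.04. The 324 genes called lower in P stood at -0.68, -0.66 and -0.63 at 3 h, against -0.03, 0.05 and -0.01 at 0 h. All 3 libraries of 3 h were thus displaced by a similar amount, and replicate 3 of 0 h, which stood apart on the second component, was not displaced along this set of genes. The share of P risers above the 0 h mean was 98.5%, 97.6% and 93.6% in the 3 h libraries.

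**Figure D5:**
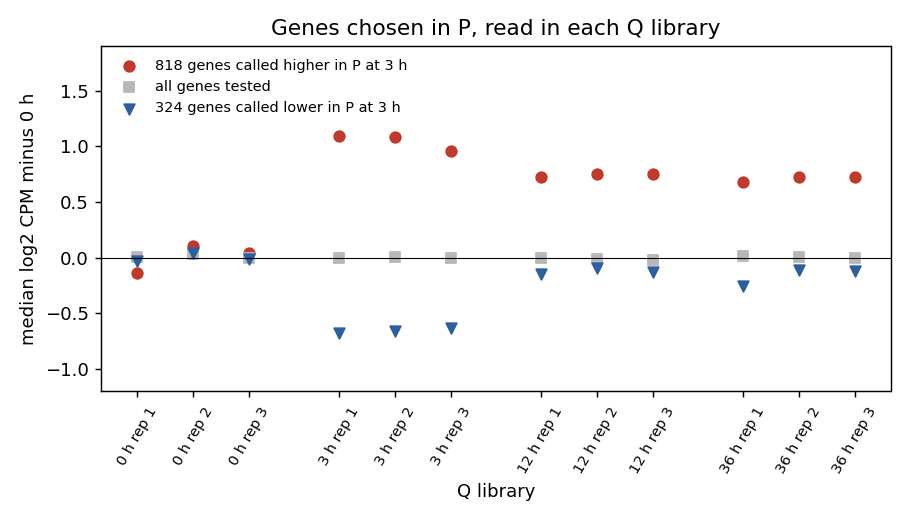
Median difference in log2 CPM from the 0 h libraries (y axis) in each Q library at 0, 3, 12 and 36 h (x axis), for genes called higher in P at 3 h (red circles), genes called lower in P at 3 h (blue triangles) and all genes tested (grey squares); a 0 h library is set against the mean of the other 2. The red medians are 0.95 to 1.09 at 3 h and 0.68 to 0.75 at 12 and 36 h, and the blue medians return most of the way towards zero after 3 h.

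The later course of the genes called at 3 h was followed as values, because every later change in Q uses the same 0 h libraries. Whether the seedlings stayed under the same conditions up to 36 h is not set out here. The 1281 genes that rose had a median log2 change against 0 h of 1.01 at 3 h, 1.03 at 12 h and 0.88 at 36 h in Q. The middle 50% of these genes lay between 0.65 and 1.69 at 3 h and between 0.32 and 2.12 at 12 h. They were chosen by their change at 3 h, so a wider spread at other times is partly built in. Over all genes tested in Q the middle 50% widened too. It lay between -0.35 and 0.31 at 3 h and between -0.64 and 0.59 at 12 h. In P, whose libraries are not in the Q comparison, the medians of the 1281 genes were 0.73, 0.93 and 0.97 at the same times. The 229 rises of 4-fold or more had medians of 2.81, 2.57 and 1.96 in Q, against 2.17, 2.48 and 3.15 in P. The 828 genes that fell had medians of -0.79, -0.62 and -0.44 in Q, and of -0.49, -0.52 and -0.41 in P. Over all genes tested the medians at these times lay between -0.04 and 0 in both letters.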

How the data were processed

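Leaf RNA of 22 libraries was read from 1 deposited table of raw counts, whose values are whole and carry no normalization; it has 0 value columns beyond these libraries. FastQC, HISAT2 and featureCounts were used, per the submitters' processing notes; their versions, the reference that reads were aligned to and any use of strand are not given in the sources used here. Of 54696 identifiers, 29.5% share a Trinity cluster with another, and reads of near-identical ones may be split or lost.

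Groups were taken from the letter and time in the titles. The function filterByExpr (minimum count 10, 8 groups) left 21694 genes, which hold 99.8% to 99.9% of each library. Counts were scaled by TMM and tested with edgeR 4.0.16 in R 4.3.3 (robust quasi-likelihood, dispersions over all 22 libraries, common biological coefficient of variation 0.26), with Benjamini-Hochberg adjustment over all genes tested and a threshold of 0.05. Standard errors were taken from the fitted change and its F statistic. CPM were computed on library sizes after TMM scaling, with a prior count of 2 for log2 CPM. Python 3.11.15 with pandas 2.3.3 and scipy 1.17.1 was used for summaries.

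Libraries of a group differed by far more than sampling noise (chi-square per gene 15.6 to 32.2 in Q, where about 1 is expected from noise). The labels speak of extraction from each plant, but no source says that the libraries came from separate plants, so p-values cover only the spread seen among them, which may be technical. A level of 1 CPM corresponds to 14.4 to 18.5 counts in a Q library of 3 or 0 h. In simulated counts for Q at 3 h against 0 h, over 20614 genes, 58% of 100 genes changed 4-fold and 39% of 100 changed 2-fold were recovered, with 5 false calls. No other gene was changed there, a far smaller share than was called in Q, so these rates need not hold for the real comparison. The replicate number was not used as a block, because the labels state no model. Same-numbered libraries of 3 h and 0 h did not deviate together in Q, which does not show that they are unpaired.

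By the naming rule, identifiers are printed for the largest log2 change and the largest CPM change in each direction among called genes averaging 5 CPM or more over the 6 libraries, no overlap and no other identifier in their cluster. Members, rule and alternatives were chosen with earlier results of these data known. The alternatives were RLE factors, library totals, no filter, at least 10 counts in 11 libraries, DESeq2 1.42.0, the compared libraries alone, a replicate block, thinning to the smallest total, a minimum change of 2-fold, sums over Trinity clusters and leaving out each library.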

Additional observations from a re-analysis of the deposited data

Results flagged for a closer look

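The change from 0 h to 3 h differed between the letters for 1 gene of those tested, with a log2 difference of -2.38, Q minus P (standard error 0.27, adjusted p 0.00065 in edgeR). In Q it stood at 22.6, 26.2 and 29.1 CPM at 3 h, against 27.3, 29.8 and 29.6 CPM at 0 h, and its log2 change of -0.15 ± 0.18 (standard error) was not called (adjusted p 0.688 in edgeR). In P it stood at 156 and 105 CPM at 3 h, against 20.3, 36.4 and 27.0 CPM at 0 h (log2 2.22, standard error 0.20, adjusted p 2.022e-06 in edgeR). The gene shares its Trinity cluster with 1 other identifier, and it was singled out after its values were seen.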

How the results depend on the processing

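The 2109 genes called in Q became 941 with a minimum change of 2-fold, and 1321 to 1848 with 1 of the 6 libraries left out. Under RLE factors, library totals, no filter, 10 counts in 11 libraries, DESeq2, the compared libraries alone, thinning, cluster sums and the block the count lay between 1436 and 2844. A total of 663 rises and 292 falls were called in the same direction in every one of the 6 fits with a library left out, and no called gene was called in the opposite direction under any of these settings, cluster sums aside, where identifiers could not be matched. The 1142 calls in P became 665 with a minimum change of 2-fold, 1825 with DESeq2, 600 with the compared libraries alone, and 659 to 1092 with a 0 h library left out. Leaving out a 3 h library of P gave 400 or 478, and leaves 1 library there that is assumed to vary like those of the other groups. The 1 gene that differed between the letters became 4 with no filter, 23 with DESeq2, 0 with the compared libraries alone (1038 genes at an unadjusted p under 0.05), 4 with those and a replicate block, and 1 to 2 with a library left out. The cause of these moves was not tested.

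Same-numbered libraries of 3 h and 0 h in Q deviated from their group means with correlations of -0.07, -0.03 and -0.06. These values do not show whether such libraries share more than a number. The replicate block gave 1972 called genes in Q, or 1436 with the compared libraries alone, and 884 in P, or 1157 with the compared libraries alone. TRINITY_DN30863_c0_g1 lost its call with no filter (adjusted p 0.113 in edgeR) and in 4 of the 6 fits with a library left out. The other 3 named genes kept direction and call in each of the 15 alternatives that give them a value. Weak genes are limited by depth: in the lowest of the 4 level classes the median standard error was 0.91 on the log2 scale.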
